A study of Caenorhabditis elegans with 4 samples.

Results

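The response to low oxygen was described in adult Caenorhabditis elegans that had been fed bacteria making double-stranded RNA of elt-2. The animals were of the wild-type strain N2 and were kept at 20 °C on NGM modified RNAi medium. One library labelled elt-2 RNAi and normoxia was set against 1 library labelled elt-2 RNAi and hypoxia, the latter after 36 h at 0.5% oxygen in nitrogen from day 1 of adulthood. These are 2 of the 4 libraries of the study. The other two, normoxia and hypoxia on empty vector RNAi as the control food, are given beside them where the responses are compared. All were made from RNA of whole animals, and the labels do not say how many animals or cultures gave each library. Of 19852 loci, 10523 were compared, which are those that name 1 gene, whose status in the deposited table was not FAIL, HIDATA or LOWDATA, and whose mean in both libraries was at least 1 RPKM (reads mapped to a locus, per kilobase of its transcript and relative to all mapped reads). The rest were 8990 loci under that mean, 334 that name several genes and 6 by their status, including the yolk genes vit-2, vit-5 and vit-6, with 1 locus counted under both of the last reasons. With 1 library a side there is no replicate error and no test of any difference, and each count below describes these libraries. A log2 ratio is log2 of (RPKM + 1) in hypoxia over (RPKM + 1) in normoxia, a difference and not a level, and at low levels it is smaller than the true change.

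In C. elegans, oxygen is sensed by the prolyl hydroxylase EGL-9, which marks the transcription factor HIF-1 for removal through VHL-1 when oxygen is plentiful. In low oxygen HIF-1 persists and raises its targets, while the animal slows reproduction and growth. ELT-2 is the GATA factor that maintains expression of most intestinal genes in the adult, among them digestive enzymes, metal and haem handling proteins and antimicrobial effectors. The intestine is the main site of digestion, fat storage, yolk production and defence in this animal.

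The targeted gene went against the label. elt-2 (chromosome X, 10481180 to 10483367 on ce10, plus strand) was at 14.3 RPKM with normoxia and 23.8 RPKM with hypoxia on labelled elt-2 RNAi. The control food had 4.81 RPKM with normoxia and 15.2 RPKM with hypoxia. Both libraries labelled elt-2 RNAi were thus above the control library of the same oxygen level, and hypoxia was above normoxia on either food. The log2 ratio of elt-2 was 0.70 on labelled elt-2 RNAi and 1.48 on control, and the authors' deposited table gave it an adjusted p of 0.999 for the former. Reads from double-stranded RNA of the food were not told apart from transcripts of the animal, and their part in the value was not tested. The related intestinal GATA factors elt-7 and elt-4 were at 5.96 and 0.64 RPKM under normoxia and at 12.84 and 3.36 under hypoxia, with ratios of 0.99 and 1.41.

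In hypoxia, 1057 of 10523 genes (10%) were higher by 2-fold or more and 453 (4.30%) lower. The median log2 ratio was -0.01, and 85.7% of genes lay within 2-fold. Scaling both libraries to the same summed RPKM changed this split to 834 higher and 627 lower, since it moves the median of all genes to -0.17. Past 4-fold there were 193 higher genes (1.83%) and 82 lower (0.779%). The number of loci detected was similar, with 10462 loci at 1 RPKM or more in normoxia and 10775 in hypoxia. In the authors' deposited table, from their test of 1 library against 1 library, 86 of these genes were called significant, 67 higher in hypoxia (0.637% of 10510 genes tested) and 19 lower (0.181%). In that table the called genes were abundant, with a median mean level of 100.5 RPKM, and of 67 genes that were past 8-fold at a mean of at least 5 RPKM only 23 were called.

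**Figure D1:**
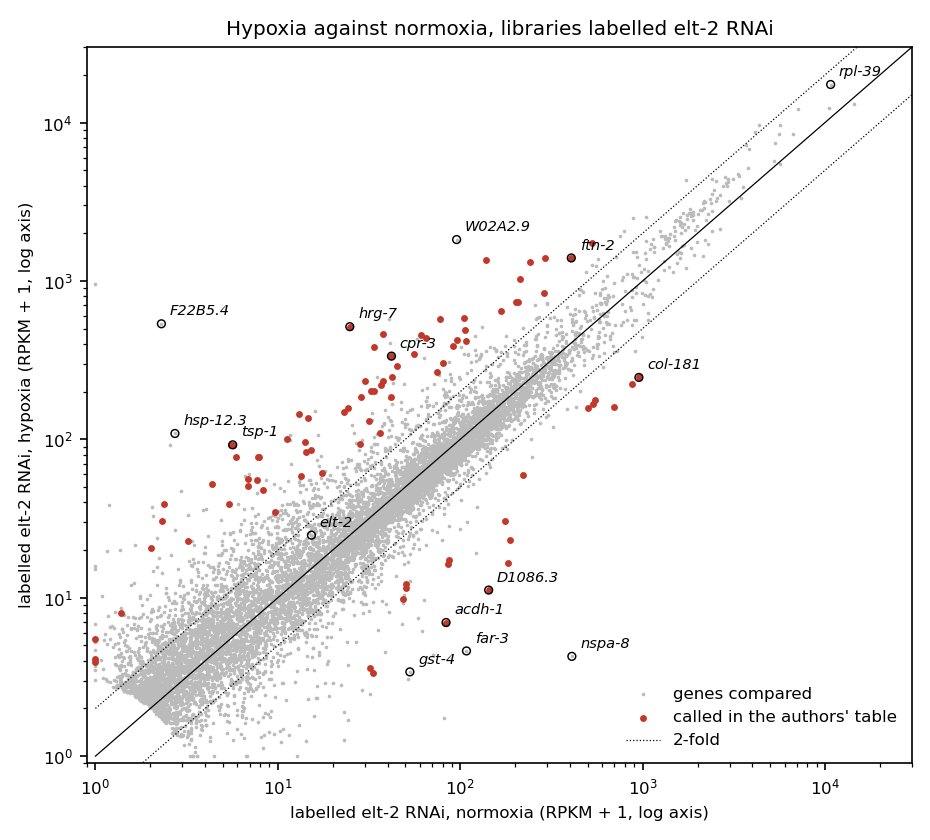
RPKM + 1 of each of 10523 genes with normoxia (horizontal, log axis) and with hypoxia (vertical, log axis) on labelled elt-2 RNAi, 1 library each, with equality as a solid line and 2-fold as dotted lines. Most genes lie within 2-fold (85.7%), genes called in the authors' table are red, and F22B5.4 stands far above the line and nspa-8 far below it.

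Genes that need HIF-1 for their response to hypoxia were mixed, and 5 of 9 were higher by 2-fold or more and 1 was lower (median log2 ratio 1.09). F22B5.4 (chromosome II, 8449650 to 8452628, plus strand), a gene that needs HIF-1 for its induction by hypoxia, was at 1.3 RPKM under normoxia and 536 under hypoxia. Its ratio of 7.87 was close to the 7.79 of the control food, where it was at 0.734 and 384. The collagen prolyl hydroxylase phy-2 (chromosome IV, 12211098 to 12215967, minus strand) was at 6.09 and 22 RPKM, and cysl-2, a cyanoalanine synthase that detoxifies cyanide, at 42.9 and 92.5. The flavin monooxygenase fmo-2 was at 0.625 and 5.46 RPKM, against 2.42 and 46.4 on the control food, so its level was lower in both libraries labelled elt-2 RNAi. Opposite to these, the sulfide-oxidizing enzyme gene sqrd-1 was at 11.93 and 3.72 RPKM. Within 2-fold were nhr-57 (3.07 and 3.27 RPKM), egl-9 and rhy-1, which also belong to these 9 genes. Among the genes that govern HIF-1, transcripts of hif-1 itself (37.6 and 44 RPKM), egl-9 (17.1 and 18.9) and vhl-1 (15.17 and 12.29) lay within 2-fold, as did rhy-1 (18.4 and 9.99), whose product restrains HIF-1. Only C17G1.7 (now cysl-1), whose product binds EGL-9 and frees HIF-1, was past 2-fold among these 6 genes, at 4.71 and 12.4 RPKM.

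All 6 compared haem transport genes were at least 2-fold higher, with a median of 2.60. Worms cannot make haem and take it from food. C15C8.3 (hrg-7; chromosome V, 12742024 to 12744153), a secreted protease-like protein that signals haem need between intestine and neurons, was at 23.8 RPKM under normoxia and 513 under hypoxia, and was called higher in the authors' deposited table (adjusted p = 0.0101). F58E6.7 (hrg-3), which carries haem from the intestine to oocytes, was at 0.186 and 37.4 RPKM. The haem importers hrg-1 and hrg-4 were at 5.95 and 2.59 RPKM under normoxia and at 59.2 and 14.1 under hypoxia, ratios of 3.12 and 2.08. Although the ratios were near those of the control food (3.05 and 1.97), the levels were not, since hrg-1 stood at 186 RPKM and hrg-4 at 60.5 in control hypoxia.

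Of 5 compared iron storage and transport genes 4 were at least 2-fold higher, with a median of 1.74. The ferritin ftn-2 was at 405 RPKM under normoxia and 1396 under hypoxia, a ratio of 1.78 against 0.75 on the control food, and the authors' deposited table called it higher (adjusted p = 0.0101). The second ferritin, ftn-1, known as an intestinal gene, behaved otherwise. It was at 0.0692 and 3.06 RPKM here and at 3.8 and 63.7 on the control food, so that hypoxia on labelled elt-2 RNAi did not bring it to the control level in normoxia. The metal importer smf-3 was likewise low, at 0.732 and 4.77 RPKM against 1.82 and 25.4 on the control food. The iron exporter homologue fpn-1.1 was at 10.9 and 30.6 RPKM. Of the carbonic anhydrases, which interconvert carbon dioxide and bicarbonate, cah-4 (chromosome X, 13542504 to 13544525) was at 27.6 and 184 RPKM, and cah-3 at 21.6 and 70.6. cah-4 was called higher in the authors' deposited table (adjusted p = 0.0101). Of 8 compared metallothionein and cadmium-response genes, 3 were at least 2-fold higher and 1 lower, with a median of -0.21. The cadmium-response genes cdr-4 and cdr-5 had ratios of 1.96 and 2.99, cdr-4 being at 107 and 419 RPKM. Below 0 and within 2-fold were cdr-1, cdr-2, cdr-6 and cdr-7 (-0.70, -0.76, -0.19 and -0.24). The metallothionein mtl-1 was at 39.8 and 113 RPKM, whereas mtl-2 was at 9.01 and 3.04 with 529 and 520.2 RPKM on the control food.

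**Figure D2:**
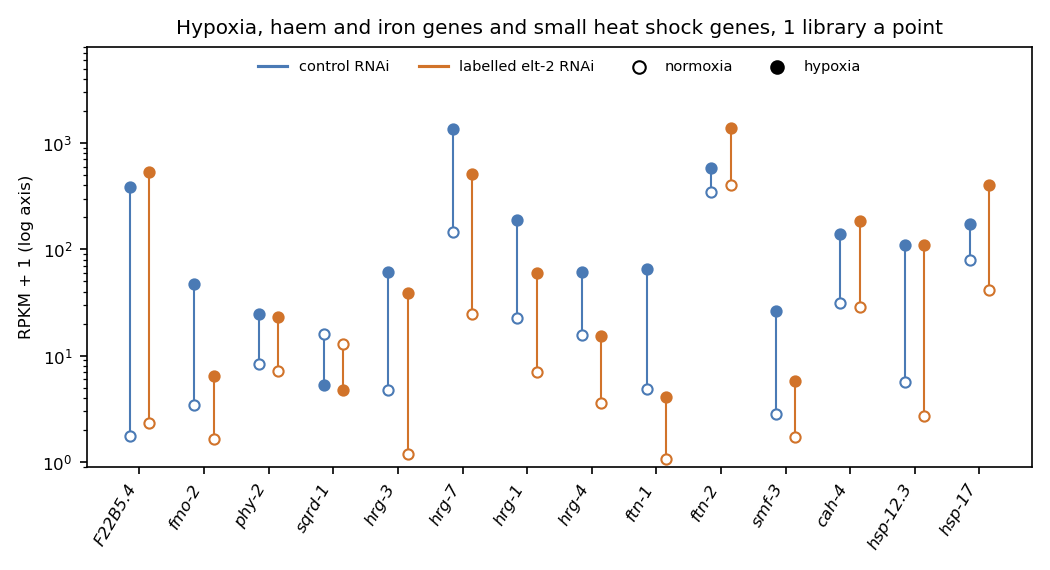
RPKM + 1 (log axis) of hypoxia, haem, iron and small heat shock genes in each of the 4 libraries, 1 point a library, open for normoxia and filled for hypoxia, blue for control RNAi and orange for labelled elt-2 RNAi. F22B5.4 goes from 1.3 to 536 RPKM on labelled elt-2 RNAi, much as on control, while ftn-1 stays at 3.06 RPKM in hypoxia against 63.7 on control.

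Small heat shock genes, which code for chaperones that hold unfolded proteins, were at least 2-fold higher for 8 of 14, with none lower and a median of 1.40. hsp-12.3 was at 1.73 RPKM under normoxia and 108 under hypoxia. hsp-17 (chromosome V, 8384754 to 8385907) was at 40.2 and 405 RPKM, a ratio of 3.30 while on the control food it was at 77.6 and 171 RPKM. The hsp-16 genes had smaller ratios than hsp-12.3 and hsp-17, with hsp-16.2 at 4.57 and 17.5 RPKM and hsp-16.48 at 14.1 and 51.4. Reads of these near-identical hsp-16 copies may be split between them. The embryonic sip-1 was by far the most abundant member and was within 2-fold, at 5697 and 5443 RPKM. None of 14 cytosolic HSP70, HSP90 and co-chaperone genes passed 2-fold (median -0.04), nor any of 16 endoplasmic reticulum chaperones and stress sensors (median 0.18), among which the unfolded protein reporter hsp-4 was at 236 and 191 RPKM. No mitochondrial chaperone or stress factor of 10 passed 2-fold, hsp-6 being at 180.3 and 335 RPKM.

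Fatty acid desaturases went both ways. Of the genes on the path to polyunsaturated fatty acids, fat-3 was at 105 RPKM under normoxia and 580.1 under hypoxia, fat-2 at 788 and 2070.0, fat-4 at 196 and 424, and fat-1 at 467 and 848. fat-6, which makes oleic acid, was at 165 and 646 RPKM, whereas its close relatives fat-7 (5.25 and 0.377) and fat-5 (15.8 and 3.55) were lower in hypoxia. In counts, 4 of 7 were past 2-fold higher and 2 past 2-fold lower, fat-1 being the one within 2-fold at 0.86. The authors' deposited table called fat-3 and fat-6 higher, both at an adjusted p of 0.0101. For all 7 the ratio was below that of the control food, whose median was 1.93 against 1.11, with 1 of them below by at least 2-fold. For fat-5 and fat-7 this was a larger fall and for the others a smaller rise. The share of all compared genes below their control ratio is not given. Of the 11 synthesis and elongation genes, elo-2 (81.4 and 234.9 RPKM), which elongates palmitic acid, and elo-5 (298 and 719.8), which makes branched-chain fatty acids, were past 2-fold and the other 9 were not.

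Breakdown of fatty acids showed no common direction past 2-fold, since 4 of 41 genes were higher and 4 lower (9.76% each way, median -0.26). Over all compared genes these shares were 10% and 4.30%. acdh-1, an acyl-CoA dehydrogenase whose level follows propionate in the diet, was at 82.6 RPKM under normoxia and 5.97 under hypoxia, and the authors' deposited table called it lower (adjusted p = 0.0101). Its ratio was -3.58 here and -1.98 on the control food. F59F4.1 (acox-1.6), a peroxisomal acyl-CoA oxidase, was at 1.51 and 9.12 RPKM and the enoyl-CoA hydratase ech-3 at 10 and 33.3. far-3, which binds fatty acids and retinol (chromosome V, 12996804 to 12997509, minus strand), was at 107 and 3.62 RPKM, a ratio of -4.55, while the abundant far-2 was at 2929 and 4430.2.

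Most genes of central carbon metabolism lay within 2-fold, as did 85.7% of all compared genes. Of 16 glycolysis genes, 2 were at least 2-fold higher (12.5%, near the 10% of all compared genes). These were the aldolase T05D4.1 (aldo-1) at 20.0 and 66.4 RPKM and the glyceraldehyde phosphate dehydrogenase gpd-3 at 114 and 308. The relatives gpd-4 (329 and 182 RPKM) and gpd-1 (532 and 342) lay in the other direction, within 2-fold. Of 16 genes for gluconeogenesis, the glyoxylate cycle, trehalose and glycogen, 1 was at least 2-fold higher and 1 lower (6.25% each way). Over all compared genes these shares were 10% and 4.30%. The trehalose synthase gene tps-2 was at 8.8 and 21.1 RPKM, a ratio of 1.17. gei-7 (icl-1), the glyoxylate cycle enzyme that lets fat feed sugar synthesis, was at 29.4 and 8.16 RPKM, a ratio of -1.73. None of 22 citric acid cycle genes, none of 40 respiratory chain and ATP synthase genes, none of 59 mitochondrial ribosomal proteins and none of 18 vacuolar ATPase subunits passed 2-fold. The proteasome was close to uniform, with 30 of 31 subunits below 0, a median of -0.30 and none past 2-fold.

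All 72 compared cytosolic ribosomal protein genes were above 0, with a median of 0.51 and 3 past 2-fold. Their share of the summed RPKM was 18.6% in normoxia and 24.2% in hypoxia. rpl-39 was at 10738 and 17390.0 RPKM and rps-27 at 4328 and 9612. The median was 0.26 once the trend of the ratio on transcript length was removed. None of 32 translation initiation and elongation factors and none of 17 aminoacyl-tRNA synthetases passed 2-fold.

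Structural genes of the intestinal cell were among the higher genes in hypoxia. Of 8 compared genes for intestinal intermediate filaments and the brush border, a list made after their values were seen, 5 were at least 2-fold higher with a median of 1.99, against 0.87 on the control food. The filament genes ifb-2 (chromosome II, 5750168 to 5754121), ifd-2 and ifc-2 were at 29.2, 5.9 and 12.31 RPKM under normoxia and at 231, 55.1 and 57.5 under hypoxia. act-5, the actin of the intestinal microvilli, was at 89.9 and 386 RPKM. The authors' deposited table called all 4 of these genes higher (adjusted p = 0.0101 each). Galectins, which bind galactosides, were also listed after their values were seen, and 5 of 12 were at least 2-fold higher. Of these lec-6 (525 and 1737 RPKM), lec-8 (211 and 1026), lec-10 (106 and 491) and lec-11 (13.04 and 95.1) were called higher in the authors' deposited table, with adjusted p up to 0.0181. The neighbouring tetraspanin genes tsp-1 and tsp-2 on chromosome III were at 4.66 and 4.86 RPKM under normoxia and at 91.4 and 76 under hypoxia.

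Over 18 compared intestine markers, 7 were at least 2-fold higher and 1 lower, with a median of 0.82 and a summed level of 776 RPKM under normoxia and 1519 under hypoxia. The genes ifb-2, ifd-2, ifc-2 and act-5, named above, are 4 of these 7 higher markers, so this list is not separate from the structural genes. No marker of the list of 20 was at 0. In RNA of whole animals, a change in the number of cells of a type and a change in RNA per cell cannot be told apart, and the part of either in the ratios above was not tested. The markers did not move together, with the intestinal proton pump subunit vha-6 at 61 and 43.5 RPKM and the esterase ges-1 at 6.65 and 12.1.

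Digestive proteases were uneven. Of 6 cathepsin B-like genes, 3 were at least 2-fold higher, led by cpr-3 (chromosome V, 15296833 to 15298659) at 41 RPKM under normoxia and 334 under hypoxia, which the authors' deposited table called higher (adjusted p = 0.0101). cpr-4 and cpr-6 were at 121 and 108 RPKM under normoxia and at 96.1 and 58.8 under hypoxia, both within 2-fold. Of 8 aspartic proteases, 4 were at least 2-fold higher and 1 lower. asp-6 was at 885 and 2494 RPKM, close to the 839 and 2549 of the control food, and asp-5 at 119.4 and 365, well under the 488 and 1833 of the control food. asp-13 was at 18.1 and 1.4 RPKM here and at 141 and 107 on the control food. Of the peptide transporters that take up the products of digestion, opt-2 (pept-1) was at 13.1 and 30.03 RPKM and opt-1 (pept-2) at 12 and 37.6.

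Among the antimicrobial effectors, lysozymes had a median of -0.29 against 0.66 on the control food, and of 8 genes 1 was at least 2-fold higher and 2 were lower. ilys-5 was at 906 RPKM under normoxia and 358 under hypoxia, while it was at 1293 and 1519.6 on the control food. lys-1 was at 175 and 90.2 RPKM against 470.3 and 908, and lys-7 at 82.6 and 40.2 against 148 and 192. For these 3 genes hypoxia was the lower library on labelled elt-2 RNAi and the higher one on control. lys-4 was at 1.35 and 1.63 RPKM, with 29.04 and 155 on control. Only lys-3, at 1.16 and 14.6 RPKM, was past 2-fold higher. In all, 7 of 8 lysozyme ratios were below those of the control food, 4 of them by at least 2-fold on the ratio. This difference was not tested, and the same share over all compared genes is not given.

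The C-type lectins, a large family of sugar-binding secreted proteins, had 53 of 255 loci compared, and of these 9 were higher by 2-fold or more and 12 lower (median -0.39). clec-221 was at 1.03 and 36.2 RPKM while staying under 1 RPKM in both control libraries. clec-186 was at 32.1 and 2.34 RPKM and was called lower in the authors' deposited table (adjusted p = 0.0417). clec-47 was among those that differed most from the control food, at 0.69 and 1.39 RPKM here and 2.82 and 69.8 there. The thaumatin-like genes thn-1 and thn-2, close neighbours on chromosome IV (12380080 to 12380833 and 12383148 to 12383981), went in opposite directions. thn-1 was at 41.3 RPKM under normoxia and 245 under hypoxia, and thn-2 at 107 and 29.04. On the control food they were at 3.07 and 3.98, and at 39.8 and 49.4, with ratios of 0.29 and 0.31. The authors' deposited table called thn-1 higher (adjusted p = 0.0101) and did not call thn-2.

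Infection-response, dod and CUB-like genes had 3 of 20 at least 2-fold higher (15%) and 6 lower (30%), beside 10% and 4.30% of all compared genes. T24B8.5 (now sysm-1), an immune reporter of the p38 MAP kinase pathway, was at 60.8 and 5.16 RPKM and dod-17 at 57.4 and 6.46. dod-24 was at 220.2 and 58.1 RPKM, whereas dod-23 was at 206 and 739.6. In the authors' deposited table dod-24 was called lower and dod-23 higher, both at an adjusted p of 0.0417. On the control food dod-24 was at 294 and 363 RPKM.

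Epidermal peptide genes had more members past 2-fold lower than higher. Of 17 compared epidermal antimicrobial peptide genes, 7 were at least 2-fold lower and none higher, with a median of -0.94. The caenacin cnc-4 was at 121 and 18.2 RPKM, nlp-34 at 248 and 76.2, and nlp-27 at 993 and 442. Fungus-induced and related peptide genes had 7 of 12 at least 2-fold lower, 2 higher and a median of -1.21. Among them fip-6 was at 23.1 and 0.703 RPKM and fip-5 at 54.5 and 20.9. Many of these peptide genes are short and have similar copies, and the compared fungus-induced and related members lie on chromosomes I, III, V and X.

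In detoxification, glutathione S-transferases had 5 of 31 genes at least 2-fold higher (16.1%) and 4 lower (12.9%). The shares of all compared genes were 10% and 4.30%. gst-4, a common reporter of the oxidative stress factor SKN-1, was at 51.9 RPKM under normoxia and 2.4 under hypoxia, a ratio of -3.96 against -1.84 on control. gst-10 and gst-24 were at 22 and 48.3 RPKM under normoxia and at 0.906 and 9.35 under hypoxia, and gst-22 was at 31.8 and 145. Cytochrome P450 genes had 9 of 33 at least 2-fold higher (27.3%) and 3 lower (9.09%), with a median of 0.42. cyp-33C8 was at 6.79 and 76.8 RPKM and cyp-13A5 at 13.6 and 135, and both were called higher in the authors' deposited table (adjusted p = 0.0101 each). UDP-glucuronosyltransferases had 8 of 40 higher (20%) and 10 lower (25%), from ugt-21 at 2.64 to ugt-41 at -2.25. Superoxide dismutases, catalases, peroxiredoxins and thioredoxins had 1 of 19 at least 2-fold higher (5.26%, under the 10% of all compared genes) and none lower. Among autophagy genes 1 of 21 was past 2-fold, the receptor gene T12G3.1 (sqst-1), at 27.2 and 93.1 RPKM and called higher in the authors' deposited table (adjusted p = 0.0284).

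By count, cuticle collagens had the most genes at least 2-fold lower of the 76 gene lists examined. By share they were behind some smaller lists, such as fungus-induced and related peptides (58.3%). Of 173 collagen loci 48 were compared, of which 21 were at least 2-fold lower (43.75%) and 4 higher, with a median of -0.95 against -0.44 on the control food. Their summed level was 7449.8 RPKM under normoxia and 2882 under hypoxia. col-181 (chromosome X, 12104862 to 12106013) was at 953 and 245 RPKM, col-101 at 873 and 222, and col-95 at 698 and 158. On the control food these genes had ratios of -1.38, -1.38 and -1.29, against -1.96, -1.97 and -2.13 here. col-93 had the lowest ratio, -3.15, at 31.1 and 2.61 RPKM. Of the 19 compared genes that the authors' deposited table called lower, 11 are cuticle collagens. The ratio was below that of the control food for 40 of the 48 genes, and for 6 by at least 2-fold, with no such share over all genes given. The adult collagen col-19 was within 2-fold at 156 and 129.8 RPKM, while col-135 (5.23 and 25.4) and dpy-14 (0.65 and 6.49) were higher. Of 10 compared genes for enzymes that modify and process collagen, 3 were at least 2-fold higher and none lower, with let-268, a lysyl hydroxylase, at 1.89 and 9.31 RPKM.

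**Figure D3:**
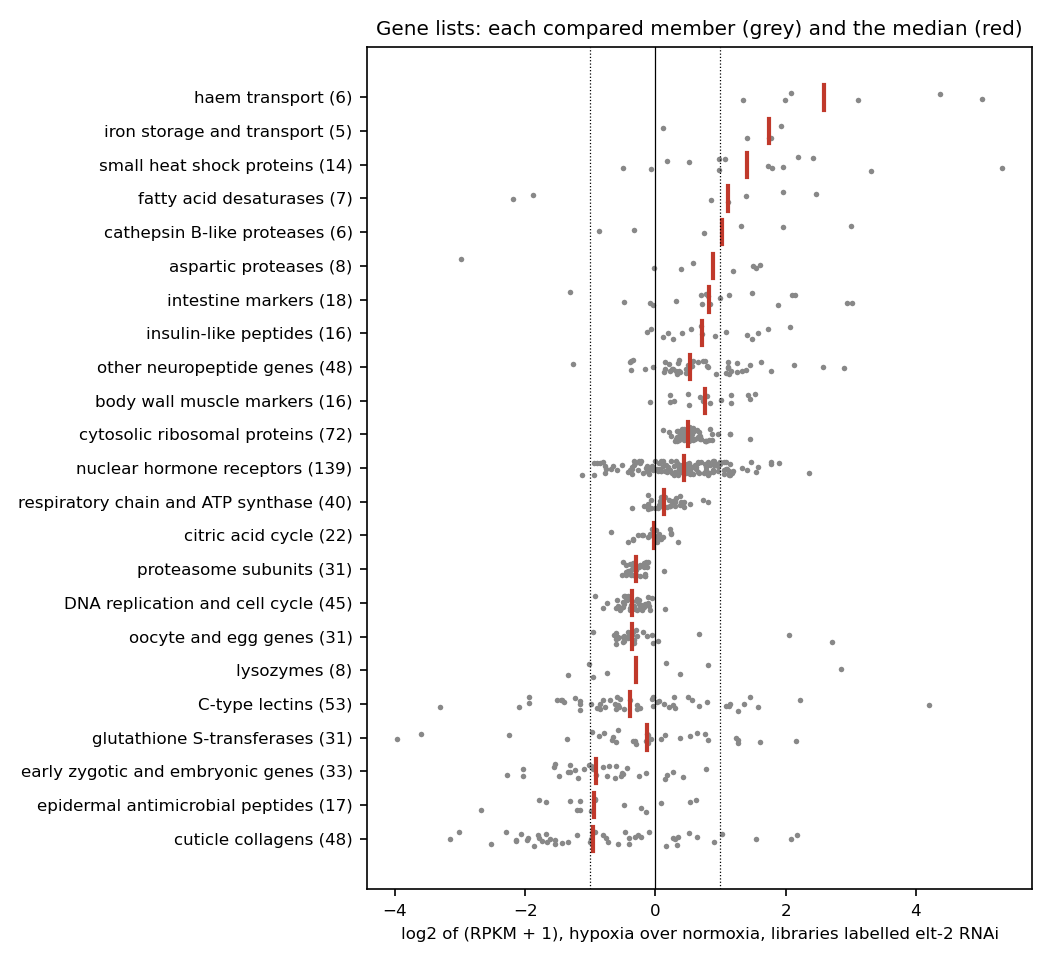
Log2 ratio of (RPKM + 1), hypoxia over normoxia in the libraries labelled elt-2 RNAi, for every compared member (grey points) of selected gene lists, with the list's median in red and the number of compared genes in brackets. Haem transport genes lie wholly to the right with a median of 2.60, ribosomal protein genes form a tight group at 0.51, and cuticle collagens lie mostly to the left at -0.95.

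Of 16 compared body wall muscle markers, 6 were at least 2-fold higher and none lower, with a median of 0.77. The myosin light chain mlc-2 (chromosome X, 17455720 to 17456520) was at 288 RPKM under normoxia and 836 under hypoxia, and the authors' deposited table called it higher (adjusted p = 0.0417). The other light chain mlc-3 was at 87.9 and 244 RPKM and paramyosin, unc-15, at 33.8 and 92.4, while the heavy chain gene myo-3 was at 3.19 and 3.87. The summed level of the muscle list was 1805 and 3136 RPKM, and no marker of it was at 0.

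FMRFamide-like neuropeptide genes were above 0 for 25 of 27, with 5 at least 2-fold higher (18.5%) and none lower. The shares of all compared genes were 10% and 4.30%. flp-6 was at 31.5 and 83.9 RPKM and flp-27 at 1.73 and 7.47. Of the 48 other neuropeptide genes, 16 were at least 2-fold higher (33.3%) and 1 lower (2.08%). The highest ratios were those of nlp-39 at 56.8 and 429 RPKM and T24F1.5 (nlp-51) at 10.8 and 69.2. Insulin-like peptides had 6 of 16 at least 2-fold higher (37.5%) and none lower, with ins-19 at 30.4 and 131 RPKM and ins-27 at 37.3 and 126. In the insulin pathway itself only pdk-1 of 9 genes was past 2-fold, at 15.3 and 6.87 RPKM. Neuron markers had 2 of 14 at least 2-fold higher (14.3%, near the 10% of all compared genes) with a median of 0.25, a summed level of 306 and 439 RPKM, and no marker at 0 in both libraries. unc-18, which controls vesicle fusion, was at 33.9 and 108 RPKM, but at 20.9 and 21 on the control food. Nuclear hormone receptors had 22 of 139 genes at least 2-fold higher (15.8%) and 1 lower (0.719%), with a median of 0.45, near the 0.45 of the control food. nhr-193 was at 0.91 and 8.76 RPKM.

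Early zygotic and embryonic genes, which are switched on in embryos carried by the mother, had 13 of 33 at least 2-fold lower, none higher and a median of -0.91. vet-6 was at 17.6 RPKM under normoxia and 2.84 under hypoxia, pes-10 at 13.5 and 2.54 and tbx-38 at 8.6 and 1.35. The list's summed level was 519.6 RPKM under normoxia and 277 under hypoxia, with 5 of 53 loci at 0 in both libraries, among them med-1 and med-2. Germline markers had 1 of 27 at least 2-fold lower (3.70%, near the 4.30% of all compared genes), meg-1, at 144 and 66.2 RPKM. Their summed level was 8569 and 6395 RPKM with none at 0. None of 45 DNA replication and cell cycle genes passed 2-fold, although 44 were below 0, with cyclin cyb-3 at 1071 and 563 RPKM. Oocyte and egg genes had a median of -0.36, with oma-2, which is needed for oocyte maturation, at 693 and 356 RPKM. The summed level of this list was 15351 and 11821 RPKM with no locus at 0. The eggshell proteoglycan genes K08B4.2 (cpg-20) and Y41D4B.26 (cpg-24) were the exceptions past 2-fold, at 0.164 and 6.61 and at 0.372 and 4.68.

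Sperm markers were mostly under the level compared, with 14 of 59 loci in the comparison. Of these 7 were at least 2-fold lower and 1 higher, W02D9.5 (ssp-37), at 87.4 and 181.2 RPKM. The summed level of these 14 genes was 127 and 215 RPKM, most of it from ssp-37, whereas their median log2 ratio was -1.01. At 0 in both libraries were 6 of the 59 loci. The msp genes, near-identical copies coding for the major sperm protein, were low throughout, with msp-152 at 2.04 and 0.169 RPKM. Yolk genes lay within 2-fold, vit-4 at 2195 and 1821 RPKM, vit-3 at 1997 and 1762 and vit-1 at 421 and 370.1. On the control food, vit-4 was at 4232 and 1765 RPKM, so that hypoxia levels on both foods were alike and the normoxia levels were not. vit-2, vit-5 and vit-6, whose status excluded them, had no usable value in hypoxia.

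Nematode-specific short peptide genes separated by family, although reads of their similar copies may be shared. The 5 compared nspa genes were all at least 2-fold lower with a median of -4.02, led by nspa-8 at 408 and 3.27 RPKM. Of 18 nspc genes, 15 were at least 2-fold higher and none lower, with a median of 1.32, and their summed level was 1498 and 3625 RPKM. This division was made after the values were seen. Histone genes, also of near-identical copies, had 12 of 49 at least 2-fold higher (24.5%) and 2 lower (4.08%). Their median of 0.15 was -0.17 once the trend of the ratio on transcript length was removed. F-box genes had 27 of 173 at least 2-fold higher (15.6%) and 9 lower (5.20%), beside 10% and 4.30% of all compared genes.

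Several further genes, most of them outside the gene lists, had large ratios. The thymosin beta homologue tth-1 (chromosome X, 8422426 to 8423680) was at 59.7 RPKM under normoxia and 456 under hypoxia, and the claudin-like gene clc-1 at 94.8 and 425. The uncharacterized C49C3.9 was at 36.8 and 460.2 RPKM, with 18.1 and 55.3 on control, and F53A9.1 at 137 and 1361. hgo-1, which breaks down homogentisate in tyrosine metabolism, was at 30.8 and 130.4 RPKM. All of these were called higher in the authors' deposited table, with adjusted p from 0.0101 to 0.0377. W02A2.9 was at 94.6 and 1824 RPKM and B0205.13 at 1.57 and 90.7, neither called in the authors' deposited table. pcp-2, a serine carboxypeptidase-like gene, was at 1.31 and 29.4 RPKM and called, although the control food had 20.3 and 85.8. Called lower there were D1086.3 (142 and 10.2 RPKM) and T22B7.7 (181.02 and 15.5), both at an adjusted p of 0.0101. At the low end without such a call were F48C1.9 (22.1 and 0.264 RPKM), R07E5.4 (28 and 1.63) and the saposin-like spp-9 (13.4 and 0.245). One copy of F46A8.7, listed at 0 RPKM with normoxia, was at 950.3 with hypoxia, a transcript of 111 bases, little longer than the reads of 100.

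Genes at least 2-fold higher were unevenly spread over chromosomes, a split examined after the values were seen. On chromosome X, 249 of 1489 genes (16.7%) were at least 2-fold higher, against 808 of 9034 autosomal genes (8.94%), with the lowest share on chromosome I (4.42%). Below a mean of 20 RPKM the shares on X and autosomes were alike, 13.7% and 12.6% from 1 to 5 RPKM and 13.4% and 16.4% from 5 to 20. From 20 to 100 RPKM they were 19.9% and 4.99%, and above 100 RPKM 44 of 109 genes on X (40.4%) against 88 of 1808 (4.87%). Among the abundant genes on X that were past 2-fold are mlc-2, cah-4, lec-8, tth-1, clc-1 and gpd-3. The 18 nspc genes, similar copies that may share reads, all lie on X, and 10 of the 44 genes are of this family. Without it the share above 100 RPKM was 34 of 98 genes (34.7%), and over all levels 234 of 1471 (15.9%). Among the same genes on the control food, 189 of 1489 on X (12.7%) and 759 of 9034 on autosomes (8.402%) were at least 2-fold higher. Expression of the X chromosome is low in the germline of this animal. Of 27 germline markers 1 was at least 2-fold lower in hypoxia (3.70%, near the 4.30% of all compared genes). Their median was -0.28, with 6 above 0 and a summed level of 8569 RPKM under normoxia and 6395 under hypoxia. The part of the balance of tissues in the share of higher genes on X was not tested.

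**Figure D4:**
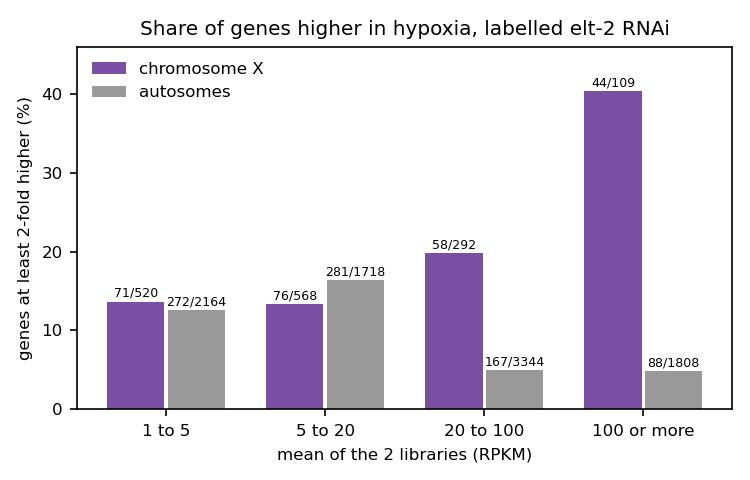
Percentage of compared genes at least 2-fold higher in hypoxia in the libraries labelled elt-2 RNAi (vertical) by mean level in RPKM (horizontal), for chromosome X and for autosomes, each bar 1 share with no error. The bars are alike below 20 RPKM and differ above, reaching 40.4% on X against 4.87% on autosomes above 100 RPKM.

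The hypoxia pair on control food shares no library with this one, and its values stand beside these with no test of the difference. In it, 1024 of 10668 genes (9.60%) were higher by 2-fold or more and 400 (3.75%) lower. Of the 1057 genes at least 2-fold higher on labelled elt-2 RNAi, 58.6% were so on control too and 97.0% were above 0 there. Of the 453 lower genes, 52.5% were at least 2-fold lower on control and 88.1% were below 0. Over the 10668 genes of the control pair the median log2 ratio was 0.01. Among the same 10523 genes, 619 were higher in both pairs, 238 lower in both and 14 past 2-fold in opposite directions. Over all 19852 loci, the authors' deposited tables called 91 in this pair and 61 in the control pair. Of these, 23 were called in both, each in the same direction. By group, haem transport (medians of 2.60 and 2.51), ribosomal proteins (0.51 and 0.55) and nuclear hormone receptors had nearly equal medians on labelled elt-2 RNAi and control. Lower on labelled elt-2 RNAi were the medians of desaturases (1.11 and 1.93), lysozymes (-0.29 and 0.66), C-type lectins (-0.39 and 0.12) and collagens (-0.95 and -0.44). So was that of fungus-induced and related peptides (-1.21 and -0.18). Higher on labelled elt-2 RNAi were the 3 compared yolk genes (-0.19 and -1.26) and small heat shock genes (1.40 and 0.91). HIF-1-dependent genes were also higher by median (1.09 and 0.39), but with a median difference gene by gene of only 0.07. Of single genes at a mean of at least 5 RPKM over the 4 libraries, those farthest above the control ratio were the copy of F46A8.7, F09C8.1, T23F2.4, clec-221 and Y41C4A.11, and those farthest below it fipr-20, clec-47, C26F1.1, F56C3.8 and Y43F8A.1. Y41C4A.11 was at 1.38 and 37.9 RPKM here and at 1.6 and 4.42 on control, so the hypoxia library labelled elt-2 RNAi stood alone. F56C3.8, at 80.6 and 0.741 RPKM here and 3.38 and 0 on control, was high in the normoxia library of labelled elt-2 RNAi only.

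**Figure D5:**
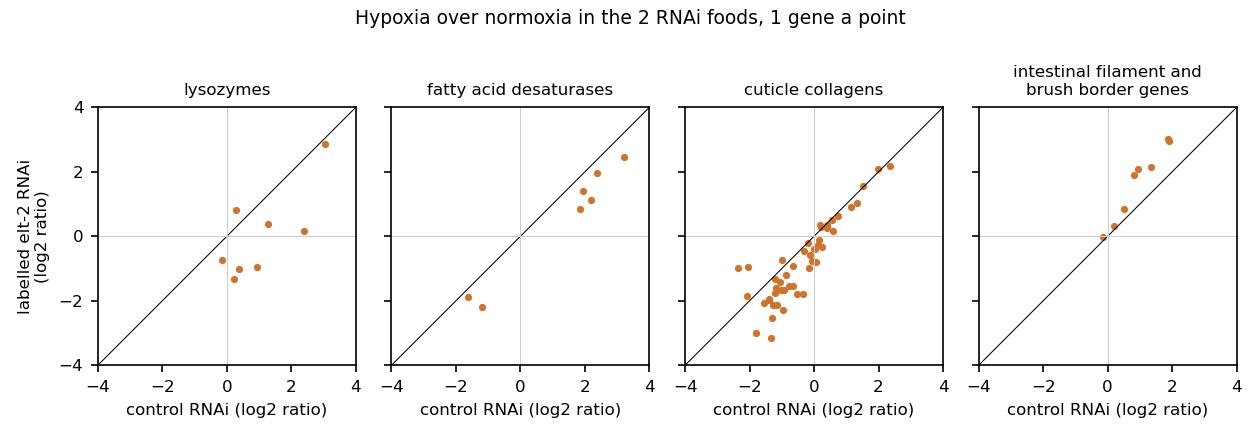
Log2 ratio of (RPKM + 1), hypoxia over normoxia, on control RNAi (horizontal) and on labelled elt-2 RNAi (vertical) for single gene groups, 1 gene a point and 1 library behind each value, with equality as a line. All 7 desaturases, 7 of 8 lysozymes and 40 of 48 cuticle collagens lie below the line, by a smaller rise or a larger fall. The share of all compared genes below the line is not given.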

How the data were processed

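RNA of whole animals was sequenced as 100 bp paired-end libraries, 1 for each of 4 groups, on a shared lane, per the labels' protocols. The authors deposited RPKM per locus, per the file headers, with the p-value, FDR-adjusted p-value and call of significance of their own test of 1 library against another. TopHat2 2.0.8b, Cufflinks 2.1.1 and ce10 are named in the submitters' processing notes. Annotation, read filters and strand handling: not given in the sources used here. Reads from opposite strands may therefore be mixed at overlapping genes.

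From these values, log2 ratios of RPKM + 1 were computed in Python 3.11.15 with pandas 2.3.3 and numpy 2.4.6, with figures from matplotlib 3.10.9. Coordinates are those of the files on ce10, counted from 1. Of 19852 loci, 18870 matched a gene of the WBcel235 name tables, used for current names and transcript lengths only, and 248 descriptive names were replaced. The code that counts 2-fold genes was run on simulated data. These held the sampling noise of reads only, so they cannot show how far the counts depend on variation between animals or libraries. No p-value was computed, because each group is 1 library. Read totals are unknown. The lowest values times transcript length clustered near 0.0425 to 0.0505 (RPKM times kilobases), the size 1 fragment would have, but the clusters were smeared, so whole reads were not recovered and no interval was made. RPKM is relative within a library, so a rise of abundant transcripts lowers the values of all others.

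The comparison, its 76 gene lists and the lists of galectins, tetraspanins, short peptides and intestinal structural genes were chosen with earlier results of these data known. Genes were named from sets fixed by rule: elt-2, the 15 highest and 15 lowest ratios at a mean of at least 5 RPKM, the 10 largest changes in RPKM each way, the 10 highest and lowest called by the authors, the 5 each way farthest from the control food, and members of each list (all of up to 12, otherwise the 3 highest and 3 lowest). Not every gene of these sets is named in the text. Genes named from outside these sets were chosen after their values were seen. Alternatives were other pseudocounts, filters, scalings and thresholds, and removal of a lowess trend on transcript length (statsmodels 0.14.6, fraction 0.3).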

Additional observations from a re-analysis of the deposited data

Results flagged for a closer look

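In all 14 genes were past 2-fold in opposite directions in the hypoxia pairs on labelled elt-2 RNAi and on control, a limit set after the data were seen. With 1 library a group the difference between the pairs was not tested. Lower in hypoxia on labelled elt-2 RNAi and higher on control were fipr-20 (log2 ratios of -3.67 and 3.58), F37C12.10 (-1.91 and 1.02), C26F1.1 (-1.91 and 1.76), H23N18.5 (-1.84, against 0.426 and 2.12 RPKM on control), R09F10.1 (-1.50 and 1.25), scl-2 (-1.25 and 2.04), H20E11.3 (-1.08 and 1.40) and C34F6.6 (-1.002 and 1.03). fipr-20 was listed at 0 in control normoxia and in hypoxia on labelled elt-2 RNAi, so its ratios depend on the pseudocount. scl-2, of a family of secreted cysteine-rich proteins, was at 44.4 RPKM under normoxia and 18.1 under hypoxia here, and at 37.8 and 159 on control.

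Higher in hypoxia on labelled elt-2 RNAi and lower on control were F22E5.1 (1.16 and -1.12), gst-38 (1.23 and -1.27), Y105C5B.15 (1.27 and -1.18), Y105C5B.14 (1.52 and -1.02), C29F9.12 (1.90 and -1.14) and F09C8.1 (2.48 and -2.58). Y105C5B.15 was the most abundant of these, at 81.9 and 199 RPKM here and 136 and 59.6 on control. F09C8.1 was at 1.17 and 11.1 RPKM here and 26.4 and 3.57 on control.

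The yolk genes vit-6, vit-5 and vit-2 were at 4921, 3176 and 3159 RPKM with normoxia on labelled elt-2 RNAi and listed at 0 in the other 3 libraries, with the status HIDATA in the table of this pair. Their values were not used in any comparison.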

How the results depend on the processing

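The counts of 1057 higher and 453 lower genes were 528 and 191 with a pseudocount of 5 RPKM, and 193 and 82 at a limit of 4-fold, added after the data were seen. At a mean of at least 5 RPKM, 294 genes were lower. Under the other alternatives both counts were within 1.5 times the values given, with 1426 and 615 at a pseudocount of 0.1 RPKM and 887 and 484 with the length trend removed. List medians that moved with a pseudocount of 5 RPKM were HIF-1-dependent genes (0.54), iron storage (0.77), haem transport (1.94), fungus-induced peptides (-0.60), pharynx markers (-0.62) and sperm markers (-0.35), the last at -1.84 with 0.1 RPKM. With no filter on low values they were carbonic anhydrases (0.36), iron storage (0.76), haem transport (2.08), cathepsin B-like proteases (0.40), aspartic proteases (0.05), insulin-like peptides (0.11), cuticle collagens (-0.02), and fungus-induced peptides, short peptides and pharynx markers (0). At a mean of at least 5 RPKM they were carbonic anhydrases (1.67), haem transport (3.12), fungus-induced peptides (-2.82), other neuropeptide genes (1.12) and cuticle collagens (-1.62). In all 10 lists with medians near 0 took the other sign under a scaling or the length correction, and no direction of the median is claimed for them. Counts past 2-fold are given for some of these lists, histones and glycolysis among them. No paired analysis was possible because each group is 1 library. Depth limits what low genes show: below a few RPKM a ratio rests on few reads, and 15 genes were listed at 0 in normoxia and 9 in hypoxia.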

Other observations

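Pharynx markers were mostly below the level compared, with 4 of 30 loci at a mean of at least 1 RPKM. The gland-cell genes F15A4.6 (phat-8) and C49G7.3 (phat-7) were at 8.0 and 8.03 RPKM under normoxia and at 0.413 and 0.763 under hypoxia, with ratios of -2.67 and -2.36, close to the -2.82 and -2.50 of the control food. The summed level of the 4 genes was 37.7 RPKM under normoxia and 23.8 under hypoxia, and 6 of the 30 loci, all abu and pqn genes, were listed at 0 in both libraries.

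Aquaporins, channels for water and glycerol, had 3 of 9 genes at least 2-fold higher and none lower, with a median of 0.76. aqp-2 was at 8.93 and 27.3 RPKM, aqp-1 at 20.6 and 49.5 and aqp-7 at 25.9 and 61.7. Hedgehog-related and patched-related genes, many of them of the epidermis, had 3 of 27 higher (11.1%) and 5 lower (18.5%). Over all compared genes these shares were 10% and 4.30%. Members ranged from grl-4 (12 and 3.83 RPKM) to wrt-10 (0.558 and 5.4). The transthyretin-related genes ttr-23 (5.05 and 38.2 RPKM) and ttr-37 (23.1 and 4.25) went in opposite directions, and on the control food were at 10 and 12.7 and at 10.8 and 21.2.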
